A study of Mus musculus with 6 samples.

Results

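The genes of the mitochondrial ribosome were compared between N2a (neuro2a) cells, a mouse neuroblastoma line, with and without knockdown of NF-Y. Members were all genes whose symbol is Mrpl or Mrps followed by a digit: 84 such symbols stood in the RefSeq table, 6 of them pseudogenes. The 78 protein-coding members, 49 Mrpl and 29 Mrps genes, all had a probe on the array and all passed the filter on dim signal, among 16490 genes tested. The control cells, named Vector (n = 3 arrays), received a control vector of the EmGFP-miR type, for which the methods name an empty and a non-targeting form. The knockdown cells, named YAYC (n = 3 arrays), received vectors of the same type whose artificial microRNAs target the mRNAs of 2 NF-Y subunits, NF-YA and NF-YC. All cells were transfected with plasmids, so a sample can hold untransfected cells, and a lower level in every cell cannot be told apart from a loss in some of them. Nothing in the labels says that the arrays of a group came from separate cultures, so the p-values measure the spread between these samples.

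Mitochondrial ribosomes translate the few membrane proteins of oxidative phosphorylation that are encoded in mitochondrial DNA. Their rRNAs are mitochondrial, but every protein of their large (Mrpl) and small (Mrps) subunits is encoded in the nucleus and imported. NF-Y is a heterotrimer of NF-YA, NF-YB and NF-YC that binds the CCAAT motif in promoters. Promoters of nuclear genes for mitochondrial proteins are also known for sites of ETS factors such as GABP (NRF2), of NRF1 and of YY1.

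Values are log2 signals minus the 75th percentile of the same array, so that 0 is that percentile, and a change is YAYC minus Vector. Calls needed a fold change above 1.5 together with limma's adjusted p (Benjamini-Hochberg over all probes tested) under 0.05. The targeted Nfyc fell by 1.81 on the log2 scale (adjusted p 3.23e-04) and Nfya by 0.76 (adjusted p 0.00128). Nfyb, which was not targeted, was called higher with a change of 0.83 (adjusted p 0.00131). The arrays correlated at 0.989 to 0.994 within groups and at 0.987 to 0.990 between groups. All 6 lay on 1 slide, with the 3 Vector arrays and YAYC replicate 1 in the first row of the slide and YAYC replicates 2 and 3 in the second, so the second row held no Vector array. Of 16 markers of sympathetic neuroblastoma, 15 were tested and all 15 were well above background on all 6 arrays. At an adjusted p below 0.05, 4 of these were lower (26.7%, with Mycn and Th called lower) and 3 were higher (20%). Over all genes tested 15.8% were lower and 15.7% higher. Of 10 markers of glial, immune, endothelial and connective tissue cells, 7 were well above background on all 6 arrays, 9 had a change below 0 and 3 were lower at an adjusted p below 0.05. Their part in the results was not tested.

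Some mitochondrial ribosomal protein genes rose slightly after NF-Y knockdown, and a smaller set fell. At an adjusted p below 0.05 alone, 23 members were higher (29.5%) and 8 were lower (10.3%), where 15.7% of all genes tested were higher and 15.8% were lower. The changes were small: 1 member, Mrpl41, was called lower, where 5% of all genes were, and no member was called higher, where 3.91% of all genes were. With each gene read from its brightest probe, the largest rise of a member well above background was 1.38-fold, under the minimum fold whatever its p. Leaving out any 1 of the 6 arrays left 10 to 14 higher and 3 to 6 lower members at an adjusted p below 0.05. The shares of all genes with 1 array left out are not given here. The median change of the 78 members was 0.11 on the log2 scale, with a middle range from -0.02 to 0.20, beside a median of 0.01 over all genes. Of the members, 56 had a change above 0 and 22 below 0.

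The scaling between arrays was among several settings that changed how many members passed. Under quantile normalization the median of the members was 0.17 beside 0.01 for all genes, 62 members lay above 0, 39 were higher at an adjusted p below 0.05 and 6 were lower. The background was then 18.6% of all genes higher and 15.5% lower. The called members stayed at 1 lower and 0 higher under quantile normalization, where 5.12% of all genes were called lower and 3.61% higher. With the mean signal of the spike-in probes set equal instead, the member median was 0.07 beside -0.04 for all genes. Limma then gave 0 higher members and 1 lower at an adjusted p below 0.05, and 2 higher and 5 lower at an unadjusted p below 0.05. The shares of all genes passing under spike-in scaling are not given here, so these counts cannot be set against a background. The direction of the member median and the called members (1 lower, 0 higher) were the same under these 3 scalings, while the counts at an adjusted p alone were not.

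**Figure D1:**
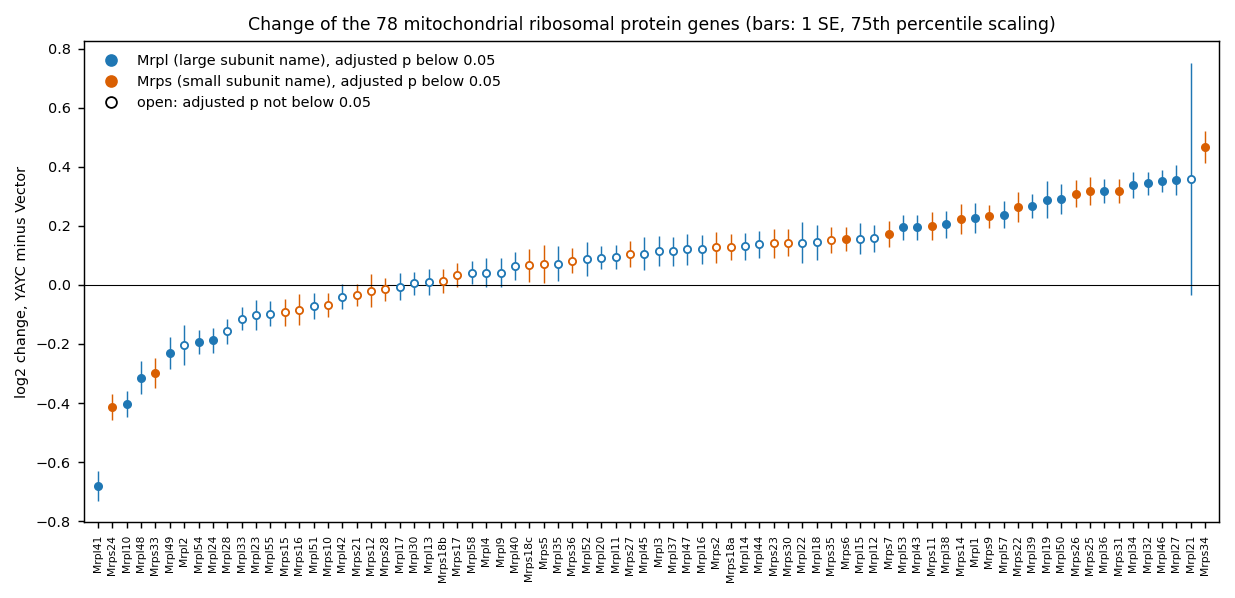
Each point is 1 of the 78 members, ordered by its log2 change (YAYC minus Vector, y axis) with a bar of 1 SE; blue marks Mrpl and orange Mrps genes, and filled points had an adjusted p below 0.05. The 8 filled points on the left run from -0.68 (Mrpl41) to -0.19, and the 23 filled points on the right from 0.16 to 0.47 (Mrps34).

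The median of the family was higher on each YAYC array than on any Vector array. The median of the members, relative to the Vector mean of each gene, was 0.02, -0.01 and -0.01 on the 3 Vector arrays and 0.13, 0.10 and 0.09 on YAYC replicates 1, 2 and 3. The corresponding median of all genes was 0.03, 0.00 and -0.01 on the YAYC arrays, so the members stood above it on each of them. For 44 members every YAYC array was above every Vector array, and for 16 every YAYC array was below. Those orders were seen in 27.7% and 27.1% of all genes. The first row of the slide held YAYC replicate 1 with all 3 Vector arrays, so a comparison within that row repeats the values of that 1 array. These were a member median of 0.13 beside 0.03 for all genes, with 57 members above 0 and 21 below. With the slide row as a block, the fit takes its change from the same YAYC array, so its member median of 0.13 is no separate result.

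**Figure D2:**
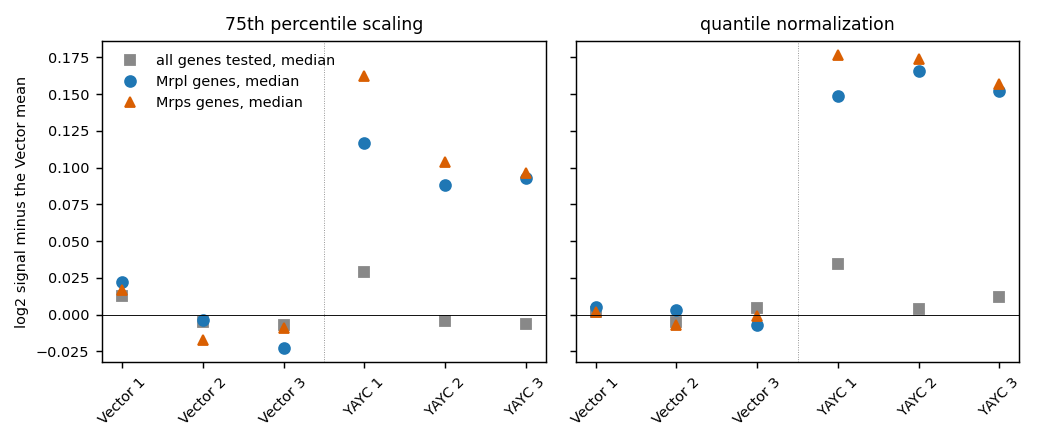
Medians over the Mrpl genes (circles), the Mrps genes (triangles) and all genes tested (squares) on each array, as log2 signal minus the Vector mean of each gene, under 75th percentile scaling (left) and quantile normalization (right). Both subunits lie between 0.09 and 0.18 on every YAYC array, above the squares, and within 0.03 of 0 on the Vector arrays.

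Mrpl41, a protein found only in mitochondrial ribosomes that sits in the large subunit, had the largest change of the family. Its log2 signal was 3.59, 3.49 and 3.48 on the Vector arrays and 2.82, 2.83 and 2.87 on the YAYC arrays. The YAYC values were close to each other and well below the Vector values. The change was -0.68 ± 0.05 (SE), a 1.6-fold fall (adjusted p 0.00134). Within the first slide row it was -0.70. A further Mrpl41 probe, assigned to the same transcript, was far dimmer (mean log2 signal -2.97) and had a change of -0.05 ± 0.09 (adjusted p 0.737). With the mean of both probes the change was -0.37 (adjusted p 0.0140), and Mrpl41 was then not called at 1.5-fold.

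Mrps24 and Mrpl10 followed among the members that fell. Mrps24 is the counterpart of bacterial S3, which lines the entry channel for mRNA. Its log2 signal was 4.41, 4.39 and 4.38 in Vector and 4.02, 3.94 and 3.97 in YAYC, with a change of -0.41 ± 0.04 (adjusted p 0.00319). Mrpl10 anchors the stalk that recruits translation factors to the large subunit. It read 3.35, 3.28 and 3.34 in Vector and 2.95, 2.89 and 2.91 in YAYC, a change of -0.40 ± 0.04 (adjusted p 0.00390), and its other probe gave -0.36. The groups did not overlap for either gene, and both changes were under 1.5-fold.

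Smaller falls were seen for 5 further members. Mrpl48, a mitochondria-specific large subunit protein, averaged 5.24 ± 0.05 in Vector against 4.93 ± 0.06 in YAYC (SD, n = 3; change -0.31, limma's adjusted p 0.0156). Mrps33, a mitochondria-specific small subunit protein, went from 5.52, 5.41 and 5.45 to 5.18, 5.12 and 5.20 (change -0.30, adjusted p 0.0146). Its second probe fell by 0.39 on the log2 scale (adjusted p 0.00556). Mrpl49 (-0.23, adjusted p 0.0372), Mrpl54 (-0.19, adjusted p 0.0284) and Mrpl24 (-0.19, adjusted p 0.0350), the counterpart of bacterial L24, were lower on all YAYC arrays. Of these 3, only Mrpl24 was below an adjusted p of 0.05 under quantile normalization (0.0479), with 0.0540 for Mrpl49 and 0.0855 for Mrpl54.

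Among the members that rose, Mrps34, a mitochondria-specific small subunit protein, had the largest change. Its log2 signal was 4.31, 4.27 and 4.17 in Vector and 4.76, 4.70 and 4.70 in YAYC, and the change was 0.47 ± 0.06 (adjusted p 0.00482), or 1.38-fold. The lowest YAYC array stood well above the highest Vector array. Mrpl46, also specific to mitochondria, had the smallest spread of the rising members named here. It read 3.11, 3.10 and 3.11 in Vector and 3.47, 3.46 and 3.45 in YAYC (change 0.35 ± 0.04, adjusted p 0.00355).

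Of 29 large subunit proteins with bacterial counterparts, 6 were higher (20.7%) and 2 lower (6.9%) at an adjusted p below 0.05. Over all genes 15.7% were higher and 15.8% lower. The 4 of these 6 with the largest rises changed by similar amounts. Mrpl27, which lies near the peptidyl transferase centre, was 4.43, 4.36 and 4.31 in Vector and 4.76, 4.72 and 4.69 in YAYC (change 0.35, adjusted p 0.00836), and its second probe rose by 0.24 (adjusted p 0.0267). Mrpl32, known as a substrate that the m-AAA protease must cleave before it is assembled, was 3.31, 3.28 and 3.28 against 3.65, 3.63 and 3.62 (change 0.34, adjusted p 0.00416). The changes of Mrpl34 (0.34, adjusted p 0.00643) and Mrpl36 (0.32, adjusted p 0.00624) were alike in size. In these 4 genes all YAYC arrays lay above all Vector arrays.

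In the small subunit, Mrps31 rose by 0.32 (adjusted p 0.00628) and Mrps25 by 0.32 (adjusted p 0.00916), both specific to mitochondria. Mrps31 was 4.37, 4.31 and 4.30 in Vector against 4.66, 4.64 and 4.63 in YAYC. Mrps22, mutated in human mitochondrial disease, went from 3.21, 3.10 and 3.16 to 3.46, 3.42 and 3.38 (change 0.26, adjusted p 0.0210). Mrps7, the counterpart of the bacterial assembly protein S7, rose by 0.17 (adjusted p 0.0455). The remaining 13 members that rose were Mrps26, Mrpl50, Mrpl19, Mrpl39, Mrpl57, Mrps9, Mrpl1, Mrps14, Mrpl38, Mrps11, Mrpl43, Mrpl53 and Mrps6, with changes from 0.31 (Mrps26) down to 0.16 (Mrps6).

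**Figure D3:**
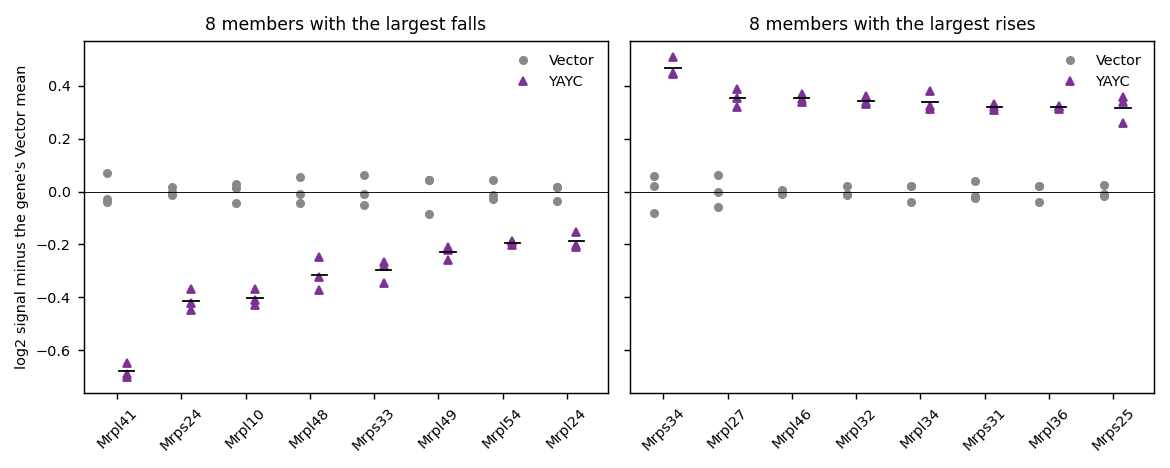
Log2 signal of each array minus the Vector mean of the gene (y axis) for the 8 members with the largest falls (left) and the 8 with the largest rises (right) at an adjusted p below 0.05; grey circles are Vector arrays, purple triangles YAYC arrays and short lines their means. In all 16 genes the 3 YAYC arrays lie on one side of the 3 Vector arrays, from -0.68 on average for Mrpl41 to 0.47 for Mrps34.

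Several members with well-known roles did not pass under 75th percentile scaling. Mrpl12, the stalk protein that also binds the mitochondrial RNA polymerase, was 6.79, 6.73 and 6.69 in Vector and 6.92, 6.88 and 6.88 in YAYC (change 0.16, adjusted p 0.0686). Under quantile normalization its change was 0.24 (adjusted p 0.00912). Mrpl11, which forms the base of the stalk with Mrpl10, had a change of 0.09 (adjusted p 0.156), or 0.16 under quantile normalization (adjusted p 0.0387), against the fall of Mrpl10. Mrpl3 (0.11, adjusted p 0.182) and Mrpl44 (0.14, adjusted p 0.0918), both mutated in human cardiomyopathy, had every YAYC array above every Vector array. Under quantile normalization their adjusted p was 0.0578 and 0.0466. Mrps16 had a change of -0.08 (adjusted p 0.309) with overlapping groups.

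The 3 Mrps18 paralogs, which occupy different places in the ribosome, had changes of 0.13 (Mrps18a, adjusted p 0.0958), 0.01 (Mrps18b, adjusted p 0.832) and 0.07 (Mrps18c, adjusted p 0.445). Mrps18a and Mrps30 are named for the small subunit but sit in the large subunit of the mammalian ribosome. Mrps30 had a change of 0.14 (adjusted p 0.0866). Mrps36, whose product is now known as a component of the 2-oxoglutarate dehydrogenase complex, had a change of 0.08 (adjusted p 0.221). Under quantile normalization Mrps18a, Mrps30 and Mrps36 were higher at adjusted p values of 0.0334, 0.0257 and 0.0383. The probe of 1 member, Mrpl21, did not rise well above background anywhere, and its values from -7.91 to -6.47 carry no measured change.

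Large and small subunit genes had close medians. Beside 15.7% higher and 15.8% lower over all genes, 13 of 49 Mrpl genes were higher (26.5%) and 6 lower (12.2%) at an adjusted p below 0.05. Of 29 Mrps genes, 10 were higher (34.5%) and 2 lower (6.9%). The median change was 0.11 over the Mrpl genes and 0.13 over the Mrps genes. The large minus small difference of these medians was -0.02. On the single arrays the Mrpl median minus the Mrps median was 0.00, 0.01 and -0.01 in Vector and -0.05, -0.02 and 0.00 in YAYC, and the groups overlapped. With genes placed by the ribosome structure, 51 in the large and 26 in the small subunit, the difference was 0.00. It was above 0 with normexp background correction and with the mean of the probes of a gene, by 0.01 at most, so it had no stable direction.

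By origin, among members only, the highest median belonged to 10 small subunit proteins specific to mitochondria, at 0.21. The 5 ribosomal proteins with other names (median 0.11) were not placed in these classes, so the class values depend on the naming rule. Of these, 5 were higher (Mrps34, Mrps31, Mrps25, Mrps26 and Mrps22) and 1 was lower (Mrps33), and 9 lay above 0. The 16 small subunit proteins with a bacterial counterpart had a median of 0.05, with 5 higher and 1 lower. In the large subunit the medians were 0.11 for both 29 proteins with a counterpart (6 higher, 2 lower) and 22 specific ones (7 higher, 4 lower). In the order given, higher genes were 50%, 31.2%, 20.7% and 31.8% of the classes, beside 15.7% of all genes. Lower genes were 10%, 6.25%, 6.9% and 18.2%, beside 15.8% of all genes. These classes were described after results of these arrays were known and were not tested against each other.

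The other genes of mitochondrial translation are given by list, and their difference from the members was not tested. Of 5 ribosomal proteins with other names, Ptcd3 (0.22, adjusted p 0.0152) and Gadd45gip1 (0.35, adjusted p 0.00657) rose, none was lower, and all 5 lay above 0 with a median of 0.11. Among 15 translation factors, Tufm, the elongation factor that delivers aminoacyl-tRNA to the ribosome, rose by 0.30 (adjusted p 0.00832), the other 14 did not pass, and the median was 0.04. Of 20 aminoacyl-tRNA synthetases and related enzymes, 5 were lower and 0 higher at an adjusted p below 0.05 by limma (3 higher at an unadjusted p below 0.05), with a median of -0.07. Sars2, the seryl-tRNA synthetase, was called lower at -0.78 (adjusted p 0.00198). Of 23 assembly and rRNA modification factors, 6 were lower and 5 higher with a median of -0.06. Rpusd4, a pseudouridine synthase of mitochondrial 16S rRNA, was called lower at -0.69 (adjusted p 0.00112). Of 17 genes of mitochondrial DNA maintenance and transcription, 1 was lower and 1 higher. Lower genes were thus 25% of the synthetases, 26.1% of the assembly factors and 5.88% of the last list, beside 15.8% of all genes. Higher genes were 0%, 21.7% and 5.88% of them, beside 15.7% of all genes. Under quantile normalization the lower and higher genes numbered 5 and 2 among the 20 synthetases, 4 and 7 among the 23 assembly factors, and 1 and 4 among the 17 genes of the last list. Of all genes, 15.5% were then lower and 18.6% higher.

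For reference, 79 cytosolic ribosomal protein genes had a median of -0.09, with 7 lower (8.86%) and 1 higher (1.27%) at an adjusted p below 0.05. The 84 nuclear oxidative phosphorylation genes had a median of -0.06, with 12 lower (14.3%) and 1 higher (1.19%). Over all genes tested 15.8% were lower and 15.7% higher, so neither set held more lower genes than that share at this threshold. A change below 0 was nevertheless seen in 76 of the 79 and in 62 of the 84 genes. Every YAYC array was below every Vector array for 49 and 36 of them, and above for 1 and 10. Those orders were seen in 27.1% and 27.7% of all genes. Under quantile normalization the medians were 0.00 and 0.02, with 4 lower and 1 higher cytosolic ribosomal protein genes and 7 lower and 7 higher oxidative phosphorylation genes. The shares over all genes were then 15.5% lower and 18.6% higher. The difference of the mitochondrial ribosomal genes from these sets was not tested.

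**Figure D4:**
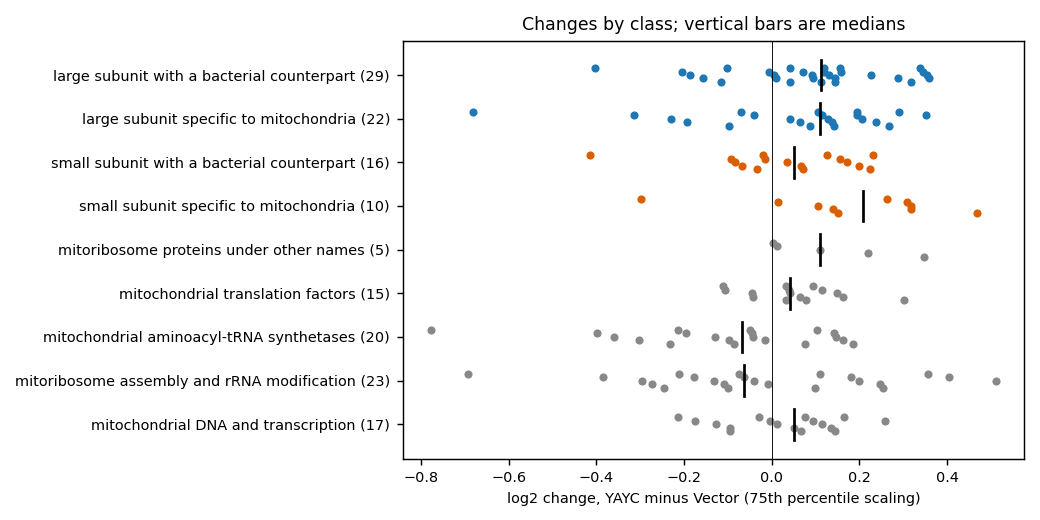
Log2 change of each gene (x axis, YAYC minus Vector) by class, with the number of genes in parentheses and a vertical bar at the median; blue and orange are mitochondrial ribosomal protein genes of the large and small subunit, grey the other mitochondrial translation and transcription lists. The 10 mitochondria-specific small subunit genes with Mrps names have a median of 0.21, while the synthetases and the assembly factors centre at -0.07 and -0.06. Ribosomal proteins with other names are among the grey lists.

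Of the 78 members, 21 had several probes, and in 5 the probes disagreed in sign or in call: Mrpl41, Mrps25, Mrps7, Mrpl49 and Mrps17. Calls here include the 1.5-fold rule. At an adjusted p below 0.05 alone, dimmer probes of Mrpl15 (0.28, adjusted p 0.00677), Mrpl22 (0.23, adjusted p 0.0250) and Mrps2 (0.18, adjusted p 0.0475) passed. The brightest probes of these genes did not. The brightest Mrps25 probe rose by 0.32, while a dim probe assigned to the same transcript (mean log2 signal -1.74) fell by 0.63 on the log2 scale (adjusted p 0.0130). With the mean of both probes the change of Mrps25 was -0.15 (adjusted p 0.189). For Mrps7 the probes moved the same way by different amounts: 0.17 on the brightest, and 0.64 on a dimmer one, a rise past 1.5-fold (adjusted p 0.00140). The second Mrpl49 probe had a change of 0.01 (adjusted p 0.916) against -0.23 on the brightest. The changes of the Mrps17 probes were 0.03 and -0.05, and neither passed.

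Promoters were read from RefSeq sequences (GRCm38.p6) for 69 of the 78 members, over the 250 bases before each transcript start. CCAAT, or its reverse complement ATTGG, was held by 25 of the 69 members (36.2%), beside 39.9% of the 13098 genes tested that had a promoter sequence. Counted per promoter, 33.8% of all 32851 promoters held it. The median change was 0.11 for the 25 members with the motif (9 higher and 1 lower at an adjusted p below 0.05) and 0.10 for the 44 without it (11 higher and 6 lower). Over all genes tested with a promoter sequence, the median was -0.02 for 5221 genes with the motif, of which 20.3% were lower and 14.9% higher. It was 0.02 for 7877 genes without it, of which 13.1% were lower and 16.2% higher. Of the members with the motif 4% were lower and 36% higher, and of those without it 13.6% and 25%. A motif match describes letters only and was not taken as a binding site.

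The promoters below belong to members with an adjusted p below 0.05 and a promoter sequence: the 3 with the largest changes among those that hold CCAAT, and the 2 with the largest changes among those that do not. They are written 5′ to 3′ on the strand of the gene, ending at the last base before the transcript start, with CCAAT or ATTGG in capitals. The Mrpl32 stretch stops where its neighbouring gene starts.
Mrpl41 (chr2:24975099-24975348, minus strand): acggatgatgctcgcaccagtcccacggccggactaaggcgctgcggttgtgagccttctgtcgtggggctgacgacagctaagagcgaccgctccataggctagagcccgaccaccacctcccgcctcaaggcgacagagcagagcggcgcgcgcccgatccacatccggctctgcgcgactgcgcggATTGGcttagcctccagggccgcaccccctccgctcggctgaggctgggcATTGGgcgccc
Mrps24 (chr11:5707702-5707951, minus strand): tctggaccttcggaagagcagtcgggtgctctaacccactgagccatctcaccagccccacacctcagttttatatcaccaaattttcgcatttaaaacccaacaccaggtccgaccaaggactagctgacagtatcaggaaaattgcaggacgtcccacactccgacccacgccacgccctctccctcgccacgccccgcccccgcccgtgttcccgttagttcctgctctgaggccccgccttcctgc
Mrpl10 (chr11:97041332-97041581, plus strand): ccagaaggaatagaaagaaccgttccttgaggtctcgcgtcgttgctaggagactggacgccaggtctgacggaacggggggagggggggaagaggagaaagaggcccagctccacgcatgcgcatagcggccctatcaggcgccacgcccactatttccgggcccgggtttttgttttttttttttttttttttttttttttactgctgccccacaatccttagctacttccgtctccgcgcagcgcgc
Mrpl32 (chr13:14613038-14613241, minus strand): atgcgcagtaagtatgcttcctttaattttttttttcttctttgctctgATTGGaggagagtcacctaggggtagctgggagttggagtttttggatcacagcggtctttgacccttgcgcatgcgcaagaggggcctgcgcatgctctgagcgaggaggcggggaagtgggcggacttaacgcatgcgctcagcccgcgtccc
Mrps31 (chr8:22411090-22411339, plus strand): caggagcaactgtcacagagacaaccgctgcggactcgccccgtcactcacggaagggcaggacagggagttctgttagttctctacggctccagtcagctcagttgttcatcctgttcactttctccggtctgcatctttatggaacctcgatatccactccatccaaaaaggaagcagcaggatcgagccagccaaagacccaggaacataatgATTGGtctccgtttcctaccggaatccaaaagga
Mrpl41, the 1 called member, held the motif at 2 places, the first bases at -61 and -11 from the start, both in the ATTGG orientation. Mrps24 and Mrpl10 fell by 0.41 and 0.40 on the log2 scale with no such letters in these windows. Mrpl32 and Mrps31, which rose, held it at -155 and -34.

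Other motifs were searched on both strands in the same windows. The ETS motif CCGGAAG was held by 18 of the 69 members (26.1%), by 12.5% of genes tested and by 6.91% of all single promoters. The NRF1 motif GCGCATGCG was found in 7 of the 69 members, in 2.73% of genes tested and in 1.45% of all single promoters. The YY1 motif AAGATGGCG was found in 2 members, in 1.14% of genes tested and in 0.606% of all single promoters. The median change was 0.12 for the 18 members with the ETS motif and 0.09 for the 51 without it.

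Some members start back to back with another gene. Of the 69, 27 had a start on the opposite strand within 1000 bases, pointing away, and 24 of these neighbours were tested. The share of all genes with such a neighbour was not counted, so the 27 cannot be set against a background. Mrpl46 and Mrps11, whose starts are 42 bases apart, are such a pair within the family, and both rose (0.35 and 0.20). Of the 22 neighbours outside the family, 7 were lower and 1 was higher at an adjusted p below 0.05, and 4 were called lower. Over all genes tested, 15.8% were lower and 15.7% higher at that adjusted p, and 5% were called lower. The pairs named next were chosen after their values were seen.

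Mrps12, a protein of the decoding centre, and Sars2 start 147 bases apart. Mrps12 read 4.34, 4.42 and 4.27 in Vector and 4.37, 4.31 and 4.29 in YAYC, with overlapping groups and a change of -0.02 ± 0.06 (adjusted p 0.838), while Sars2 had the fall of 0.78 on the log2 scale given above. The 146 bases between both starts, shown because they belong to both genes, held CCAAT at 3 places.
Mrps12 (chr7:28741822-28741967, minus strand): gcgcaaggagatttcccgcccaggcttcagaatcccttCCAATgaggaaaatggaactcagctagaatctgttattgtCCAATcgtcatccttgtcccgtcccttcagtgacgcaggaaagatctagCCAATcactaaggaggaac
Zfp661, a zinc finger gene beside Mrps5, fell by 0.85 on the log2 scale (adjusted p 5.05e-04), while Mrps5 had a change of 0.07 (adjusted p 0.496). Ptcd2, which encodes a mitochondrial RNA processing protein, fell by 0.55 (adjusted p 0.00131) beside Mrps27, whose change was 0.11 (adjusted p 0.153). Klc4, a kinesin light chain, fell by 0.58 (adjusted p 0.00157), at the limit of the 1.5-fold rule, beside Mrpl2 with -0.20 (adjusted p 0.0931).

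In some other pairs the values were alike. Mrpl48 and Rab6a, a Golgi GTPase gene whose transcript overlaps the start of Mrpl48, fell by 0.31 and 0.32 (adjusted p 0.00697 for Rab6a). Mrpl41 and Pnpla7, a lysophospholipase gene that starts 935 bases away, fell by 0.68 and 0.62 (adjusted p 0.00285 for Pnpla7). Mrpl27 and Eme1, a subunit of a DNA repair nuclease, rose by 0.35 and 0.30 (adjusted p 0.0298 for Eme1). Elsewhere a member passed an adjusted p of 0.05 and its neighbour did not. Examples are Mrpl32 (0.34) with Psma2 (-0.015), Mrpl50 (0.29) with Zfp189 (-0.07) and Mrpl49 (-0.23) with Fau (-0.03). Ncapd2 fell by 0.32 (limma's adjusted p 0.00976) beside Mrpl51, whose change was -0.07 (adjusted p 0.322). The differences within pairs were not tested.

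**Figure D5:**
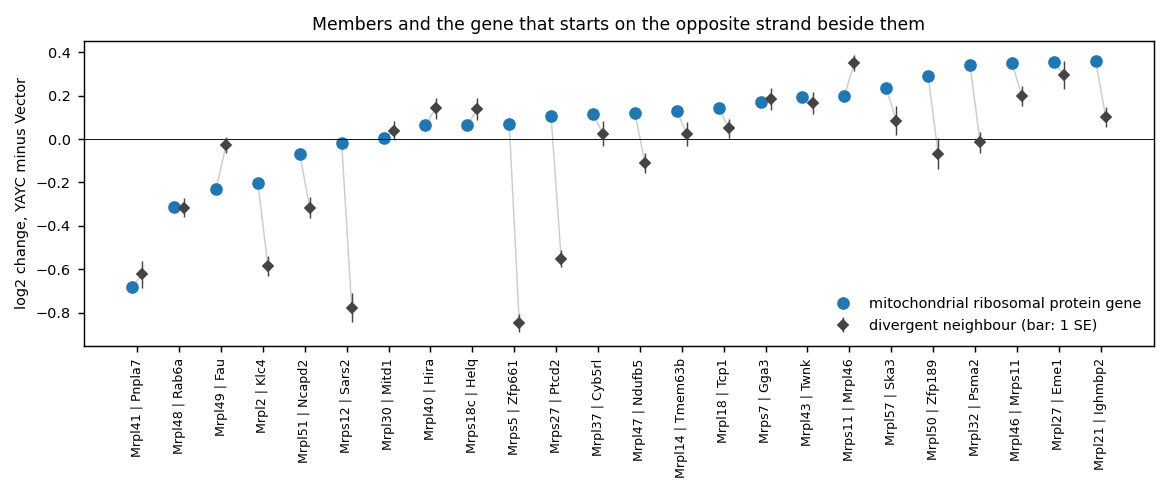
Log2 change (y axis, YAYC minus Vector) of 24 members (blue) and of the gene that starts on the opposite strand within 1000 bases (dark diamonds with 1 SE), joined by a line and ordered by the change of the member. Sars2, Zfp661, Klc4 and Ptcd2 lie at -0.55 or below while Mrps12, Mrps5, Mrpl2 and Mrps27 lie between -0.20 and 0.11.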

How the data were processed

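RNA of 6 samples was hybridised with Cy3 to Agilent SurePrint mouse arrays. The deposited scanner tables hold spot intensity values from Feature Extraction 10.10.1.1 (processed signal: background-subtracted). In the authors' value table, of log2 values, differences between arrays were within 0.0076 of those of log2 signal scaled to the 75th percentile.

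Control spots and outlier flags were left out, probes at or above the 20th percentile on all 3 arrays of either group were kept (42126), and log2 processed signal was scaled to the 75th percentile of the array. A gene was read from its brightest probe, named through RefSeq accessions; 20548 tested probes had no symbol. The 2-group test was limma's (version 3.58.1, R 4.3.3), two-sided. On simulated data, 70.5% of 200 changed probes were recovered. The small number of arrays limits the precision.

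Members, lists and classes were chosen with earlier results of these data known. Named are called members, the 8 largest changes each way, 12 members of known role and those whose probes disagree. Normexp used the median signal.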

Additional observations from a re-analysis of the deposited data

How the results depend on the processing

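The analysis was repeated under 21 alternatives. The direction of the member median was the same under all of them: it was 0.17 with quantile normalization, 0.065 with median scaling, 0.069 with spike-in scaling, 0.16 with normexp and quantile normalization, and 0.13 with the slide row as a block, and it ranged from 0.09 to 0.12 when each array was left out in turn. Counts of members at an adjusted p below 0.05 moved more. Shares of all genes are given in this text for the main setting and for quantile normalization only. Higher members numbered 39 with quantile normalization, 40 with normexp and quantile normalization, 36 with an intensity trend, 14 without a filter, 9 with median scaling, 4 with the slide row as a block and 0 with spike-in scaling, and 10 to 14 when each array was left out (main count 23). Lower members numbered 5 without a filter, 2 with the slide row as a block and 1 with spike-in scaling, and 3 to 6 when each array was left out (main count 8). The number called higher stayed at 0 and the number called lower at 1, except 0 with the mean of the probes of a gene. The large minus small subunit difference was 0.013 with normexp and the 75th percentile, 0.0056 with normexp and quantile normalization and 2.1e-05 with the mean of probes, against -0.022, and -0.046 with the slide row as a block. With the replicate block, 8 members were higher and 5 lower; the replicate numbers do not pair the samples, since the deviations of same-numbered samples correlated at 0.018, 0.067 and 0.0025. Of the named members, Mrpl41 alone changed its call, with the mean of probes, and of those past an adjusted p of 0.05 only Mrps25 turned its sign, to -0.15 with the same setting. Over 20 of the alternatives, Mrpl41 was below an adjusted p of 0.05 in 20, Mrps24 and Mrps34 in 19, Mrpl10 in 18 and Mrpl24, Mrpl49 and Mrps7 in 9. Why the counts and calls differed between settings was not tested.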
